A study of Mus musculus with 7 samples.

Results

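A set of 10 genes that carry iron into cells, store it, export it or sense it were followed in mouse medial prefrontal cortex (mPFC), a midline cortical region, after thrombospondin-1 or saline. The genes were chosen by symbol, and all of them (Trf, Tfrc, Fth1, Ftl1, Slc40a1, Slc11a2, Ireb2, Aco1, Cp and Heph) were found among 25467 genes of the count table and passed the low-count filter with 17211 genes in all. The series holds 7 mPFC libraries from 7 mice, 4 labelled rhTSP1 (recombinant human thrombospondin-1, a secreted matrix glycoprotein of astrocytes, called TSP1 below) and 3 labelled PBS (phosphate-buffered saline, the control). The comparison asks how TSP1 alters gene expression in this region. The labels used here name no strain, genotype, sex, age, dose, route or time of dissection for either group, and they give the tissue as brain.

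Neurons take up iron mostly bound to transferrin, the plasma and oligodendrocyte protein encoded by Trf, through the transferrin receptor encoded by Tfrc. Iron leaves the endosome through the divalent metal transporter Slc11a2 and is stored in ferritin, a shell of heavy chains (Fth1) and light chains (Ftl1). Ferroportin, encoded by Slc40a1, exports it, and the copper oxidases ceruloplasmin (Cp) and hephaestin (Heph) oxidise it on the way out. The iron regulatory proteins encoded by Aco1 and Ireb2 bind a hairpin called the iron-responsive element. In the untranslated region before the coding sequence the bound hairpin holds back translation, as for ferritin and ferroportin, and in the one after it the bound hairpin protects the transcript from decay, as for Tfrc. In brain, iron and ferritin are rich in oligodendrocytes and microglia, and ceruloplasmin is carried on astrocytes.

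The hairpins are shown because they tie the storage, export and uptake genes to Aco1 and Ireb2. GENCODE transcripts (GRCm38) were searched on their own strand for C, then 5 bases of any kind, then CAGTGN, followed by 5 bases that pair with the 5 before the loop, counting G with T as a pair. Each site below is given 5′ to 3′ over 28 bases, with the 6 loop bases in capitals.
Fth1, chr19:9982733-9982760, plus strand: tcctgcttcaaCAGTGCttgaacggaac
Ftl1, chr7:45459779-45459806, minus strand: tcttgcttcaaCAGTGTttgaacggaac
Slc40a1, chr1:45925465-45925492, minus strand: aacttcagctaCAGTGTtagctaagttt
Tfrc, chr16:32631220-32631247, plus strand: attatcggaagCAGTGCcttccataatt
Tfrc, chr16:32631599-32631626, plus strand: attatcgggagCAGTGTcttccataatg
Tfrc, chr16:32631664-32631691, plus strand: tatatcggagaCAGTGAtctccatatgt
Tfrc, chr16:32631711-32631738, plus strand: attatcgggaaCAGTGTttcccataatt
The Fth1, Ftl1 and Slc40a1 sites lay before the coding sequence and the 4 Tfrc sites after it. Of 21901 protein-coding genes, 34 (0.155%) had such a match in the first 250 bases of a coding transcript, and 0.09% of all 250-base windows of coding transcripts held one. Trf, Slc11a2, Ireb2, Aco1, Cp and Heph had no match, which says only that these letters and pairs are not in their transcripts.

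The libraries held 15090336 to 20755167 counts. No gene of 17211 passed edgeR's quasi-likelihood test (0%, Benjamini-Hochberg adjusted p under 0.05), 1661 (9.65%) had an unadjusted p under 0.05, and DESeq2, edgeR's exact test and limma-voom called 88, 104 and 0. TSP1 replicate 4 stood apart: the mean of its striatal projection neuron markers was 1.27 in log2 CPM relative to all 7 libraries, against -0.25 to -0.14 in the others, and that of its myelin markers was 0.85, against -0.54 to 0.36. TSP1 replicate 3 stood apart in blood markers, hemoglobin genes among them, at 1.49 on the same scale. Values that rest on replicate 4 are therefore given with and without it. In bulk tissue, fewer cells of a type and less RNA per cell cannot be told apart.

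The storage genes showed the clearest separation between the groups. Levels are given as CPM, the usual depth-scaled count unit: the count of a gene scaled to library size (with edgeR's TMM factors). Fth1, the ferritin heavy chain gene (chromosome 19, 9980598 to 9985098), had 1179.7, 1431, 1433 and 1530.1 CPM in TSP1 replicates 1 to 4 and 1875, 1770.1 and 1669 CPM in the PBS libraries. Every TSP1 library lay below every PBS library, and TSP1 replicate 1 was the lowest. The means were 1393 ± 149.8 CPM (SD, n = 4) and 1771 ± 103 CPM (SD, n = 3), a fitted difference of -21.3% (log2 fold change -0.35, SE 0.09). The edgeR adjusted p was 0.235, so Fth1 did not pass. DESeq2 called it (adjusted p = 0.0222). With a block for the replicate number the edgeR adjusted p was 0.393, and it was 0.0503 to 0.278 in the other alternatives that used all 7 libraries.

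Ftl1, the light chain gene (chromosome 7, 45457944 to 45459884), had 56, 66.6, 65 and 60.5 CPM with TSP1 and 88.2, 72.5 and 74.2 CPM with PBS. The groups did not overlap here either, and PBS replicate 1 was the highest for both chains. The log2 fold change was -0.34 (SE 0.08, edgeR adjusted p = 0.21), a difference of -20.8%. Without PBS replicate 1 it was -0.24, and without PBS replicate 2 it was -0.38. After a length and GC correction it was -0.26 (edgeR adjusted p = 0.357), and with a block for the replicate number -0.32 (edgeR adjusted p = 0.569). The adjusted p was 0.0623 in edgeR's exact test and 0.0729 in DESeq2. The chains assemble together, and the ratio of their counts within a library did not separate the groups. The log2 ratio of Fth1 to Ftl1 counts averaged 4.49 (SD 0.12, n = 4) in TSP1 libraries and 4.50 (SD 0.10, n = 3) in PBS libraries, and it ranged from 21.1 to 25.3 Fth1 counts per Ftl1 count over the 7 libraries.

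**Figure D1:**
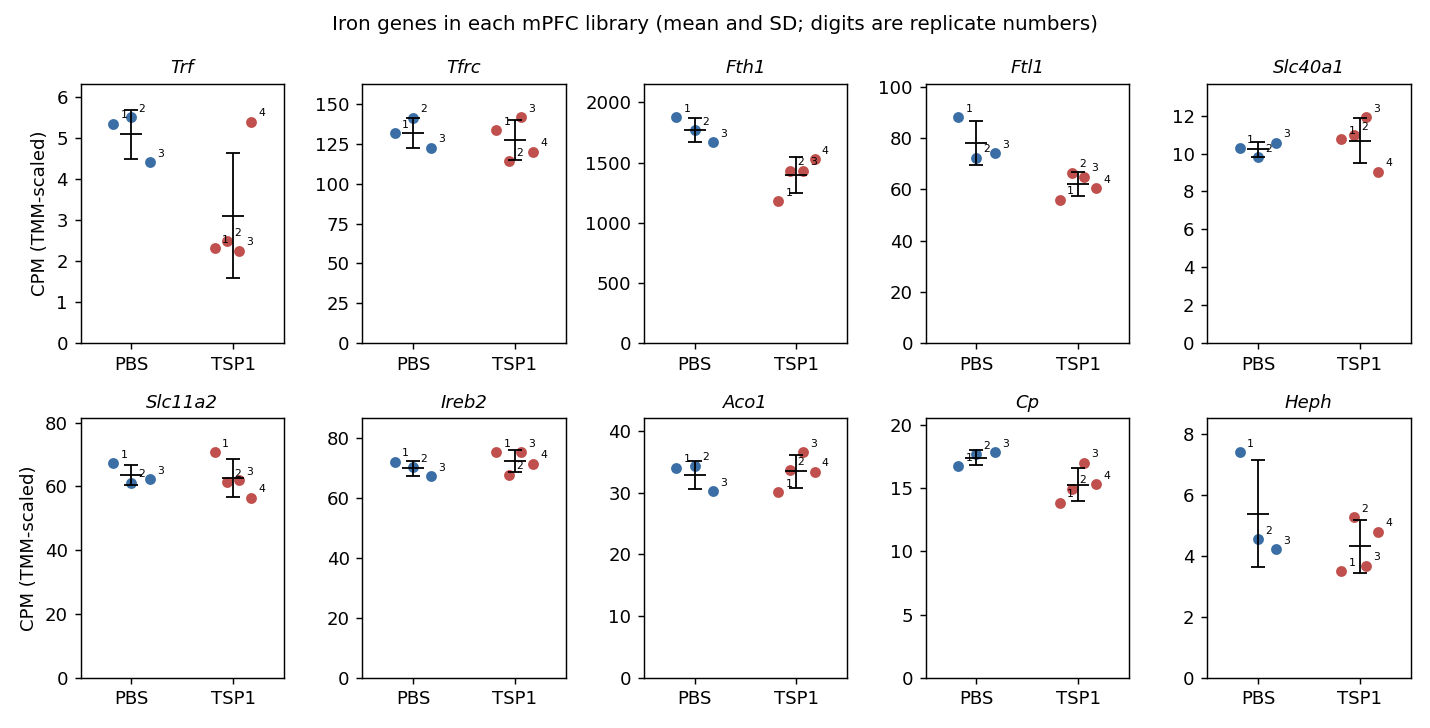
CPM of each of the 10 iron genes (vertical axes, from 0) in the 3 PBS and 4 TSP1 libraries, 1 point per library with its replicate number; black bars are the group mean and SD. Only Fth1 and Ftl1 have all TSP1 points below all PBS points, and in the Trf panel TSP1 replicate 4 sits among the PBS points.

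The 10 genes were chosen with earlier results of these data known, so the counts below are not an unbiased comparison with all genes. Fth1 and Ftl1 were 2 of the 10 genes whose groups did not overlap with TSP1 lower, where 906 of 17211 genes tested (5.26%) were of that kind. None of the 10 was higher without overlap (4.83% of all genes). At an unadjusted p under 0.05, Fth1, Ftl1 and Trf had lower fitted values (3 of 10, against 5.44% of all genes) and 0 of 10 were higher (4.21%). The median log2 fold change of the 10 genes was -0.12, beside 0.00399 over all genes tested, and 7 of the 10 had fitted values below 0, as did 48.9% of all genes. Without TSP1 replicate 4, Trf joined the ferritin genes, so that 3 of 10 did not overlap (8.13% of all genes) and 3 of 10 had an unadjusted p under 0.05 with a lower value (5.41%).

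Read assignment limits the ferritin values. Of the 50-base windows in the coding part of the Ftl1 transcript, 91.4% occurred exactly in transcripts of 10 other genes, and of the 100-base windows 81.8% did so in transcripts of 3 (Ftl1-ps1, Ftl2-ps and Gm15590). For Fth1 the shares were 11.7% and 1.79%, with 1 pseudogene, Gm6977. A stretch of Ftl1 is shown because it recurs without a change in 5 other genes (Ftl1-ps1, Ftl1-ps2, Ftl2-ps, Gm15590 and Gm8814), coding bases 227 to 276, all in lower case since no base in it tells the copies apart.
Ftl1: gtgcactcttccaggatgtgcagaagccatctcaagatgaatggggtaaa
A read from such a stretch cannot be placed by its sequence. Exons of other gene models also cover 464 of the 1340 exon bases of Ftl1 (34.6%). These are Gm10252 on the opposite strand (355 bases, with 2 to 5 counts per library) and the microRNA model Gm22133 on the same strand (109 bases). The sources used here do not say how the submitters treated shared reads or strand, so the Ftl1 level and the ratio of the chains are uncertain in absolute terms.

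The rows of the copies themselves held few reads. For Ftl1, 19 genes resembled its coding sequence at 81.2% to 99.6% identity, and only 7 of them were among the genes of the count table. These 7 held 31 to 78 counts per library in sum, or 3.06% to 4.57% of the Ftl1 count. Ftl1-ps1, the nearest copy, had 13, 29, 22 and 14 counts in the TSP1 libraries and 54, 36 and 29 in the PBS libraries. Scaled to depth, Ftl1-ps1 lay at 0.858, 1.56, 1.21 and 0.763 CPM with TSP1 and at 2.58, 2.13 and 1.77 CPM with PBS, without overlap and lower with TSP1 as Ftl1 itself (log2 fold change -0.97, SE 0.29, adjusted p = 0.31 in edgeR). For Fth1, 2 copies together held 7 to 12 counts per library. Adding the copies to their parents left Fth1 at a log2 fold change of -0.35 and Ftl1 at -0.34 (edgeR adjusted p = 0.235 and 0.191).

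Among the uptake genes, Trf had the largest fitted difference of the 10 and, through TSP1 replicate 4, the widest relative spread among the TSP1 libraries. Trf (chromosome 9, 103204001 to 103230444) had 2.31, 2.48, 2.25 and 5.39 CPM in TSP1 replicates 1 to 4 and 5.35, 5.5 and 4.4 CPM with PBS. TSP1 replicates 1 to 3 lay at about the same low level, while TSP1 replicate 4 lay within the PBS range. The log2 fold change was -0.70 (SE 0.28, edgeR adjusted p = 0.464) with all libraries and -1.11 (SE 0.20, edgeR adjusted p = 0.105) without TSP1 replicate 4. Its coefficient of variation was 49.2% within the TSP1 group and 11.7% within PBS, where Heph spread most (32.5%).

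The Trf counts, 35 to 112 per library, are uncertain too. The exons of the gene model Gm20425, on the same strand, cover 2108 of its 3320 exon bases (63.5%), and 94.1% of the 50-base windows of its coding part recur in that model. Gm20425 was not among the genes of the count table. A low level of Trf beside the other genes can therefore not be read as a low level of the transcript.

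Tfrc, the receptor gene (chromosome 16, 32608920 to 32632794), was measured with 2011 to 2761 counts per library. It had 133.8, 114.3, 141.8 and 120.4 CPM with TSP1 and 131.9, 141.6 and 122.9 CPM with PBS. The groups overlapped over nearly their whole range (log2 fold change -0.05 with SE 0.08, adjusted p = 0.89 in edgeR). Slc11a2, the endosomal transporter gene (chromosome 15, 100387898 to 100425072), had 70.7, 61.3, 61.9 and 56.4 CPM with TSP1 and 67.3, 61.1 and 62.3 CPM with PBS. TSP1 libraries were both the highest and the lowest of the 7 (log2 fold change -0.02 with SE 0.08, adjusted p = 0.952 in edgeR).

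**Figure D2:**
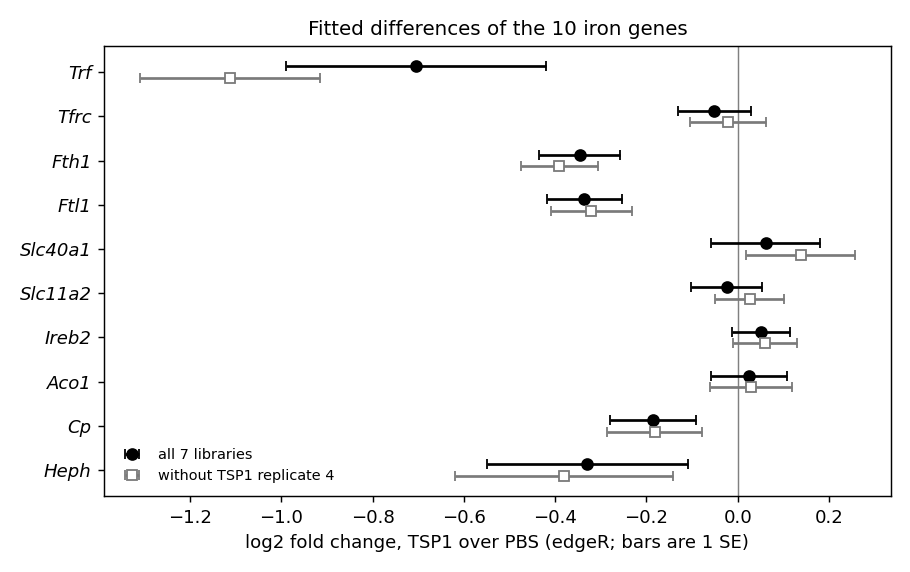
Fitted log2 fold change of TSP1 over PBS (horizontal axis; below 0 is lower with TSP1) of the 10 iron genes from edgeR, with bars of 1 SE; filled circles use all 7 libraries and open squares leave out TSP1 replicate 4. Trf moves from -0.70 to -1.11, while Fth1 and Ftl1 stay between -0.39 and -0.32.

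The export genes overlapped between the groups. Slc40a1, ferroportin (chromosome 1, 45908068 to 45926523), had 10.8, 11, 11.9 and 9.04 CPM with TSP1 and 10.3, 9.82 and 10.6 CPM with PBS. TSP1 replicates 1 to 3 lay above every PBS library and TSP1 replicate 4 below every PBS library (log2 fold change 0.06 with SE 0.12, adjusted p = 0.915 in edgeR). Without that replicate the log2 fold change was 0.14 (SE 0.12, edgeR adjusted p = 0.757).

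Cp, ceruloplasmin (chromosome 3, 19957054 to 20009145), had 13.9, 15, 17 and 15.3 CPM with TSP1 and 16.7, 17.7 and 17.8 CPM with PBS. Only TSP1 replicate 3 reached into the PBS range (log2 fold change -0.19 with SE 0.09, adjusted p = 0.564 in edgeR). Heph, hephaestin (chromosome X, 96455359 to 96574485), had 3.5, 5.27, 3.68 and 4.79 CPM with TSP1 and 7.41, 4.55 and 4.22 CPM with PBS. PBS replicate 1 alone was above all TSP1 libraries. The log2 fold change of Heph was -0.33 (SE 0.22, edgeR adjusted p = 0.678) with all libraries and -0.021 without PBS replicate 1.

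Of the sensor genes, Ireb2 varied least among the TSP1 libraries of all 10 genes. Ireb2 (chromosome 9, 54863789 to 54912530), whose protein is degraded when iron is ample, had 75.1, 67.6, 75.2 and 71.3 CPM with TSP1 and 72, 70.2 and 67.1 CPM with PBS. Its coefficient of variation was 4.98% within TSP1 and 3.55% within PBS, and the groups overlapped (log2 fold change 0.05 with SE 0.06, adjusted p = 0.852 in edgeR). Aco1 (chromosome 4, 40143081 to 40198338), whose protein is an aconitase when it carries an iron-sulfur cluster, had 30.1, 33.7, 36.6 and 33.5 CPM with TSP1 and 34.1, 34.4 and 30.3 CPM with PBS. The TSP1 libraries enclosed the PBS range (log2 fold change 0.02 with SE 0.08, adjusted p = 0.953 in edgeR).

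Ratios taken within a library do not depend on scaling between libraries. The log2 ratio of Tfrc to Fth1 counts, uptake against storage, was -3.14, -3.65, -3.34 and -3.67 in TSP1 replicates 1 to 4 and -3.83, -3.64 and -3.76 with PBS. Replicates 1 and 3 of TSP1 stood above all PBS libraries and replicates 2 and 4 within their range. The log2 ratio of Slc40a1 to Fth1 counts, export against storage, was -6.78, -7.03, -6.91 and -7.40 with TSP1 and -7.51, -7.49 and -7.30 with PBS. Here 3 of 4 TSP1 libraries lay above every PBS library and TSP1 replicate 4 lay within their range. The mean difference was 0.41 log2 units (0.53 without TSP1 replicate 4), and the pooled SD was 0.22. Both ratios restate the log2 fold changes given above (Fth1 -0.35, Slc40a1 0.06 and Tfrc -0.05), mostly that of Fth1, and are not separate results. For Slc40a1 to Tfrc the difference of 0.11 was smaller than the pooled SD of 0.15. For Trf to Tfrc it was -0.76, with a pooled SD of 0.53.

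**Figure D3:**
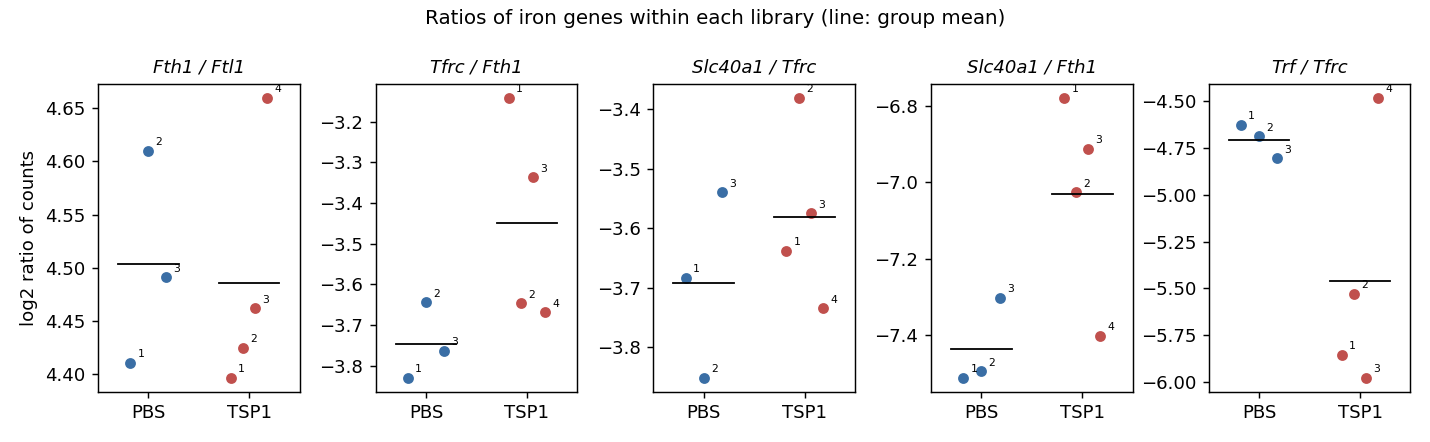
Log2 ratio of the counts of 2 iron genes within each library (vertical axes, each with its own range), 1 point per library with its replicate number and a line at the group mean. In the Slc40a1 to Fth1 panel TSP1 replicates 1 to 3 lie between -7.03 and -6.78, above the PBS points at -7.51 to -7.30, and the 2 groups overlap in every panel.

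Levels of different genes were compared per kilobase of merged exon. In PBS, Fth1 led with 511 ± 29.8 CPM per kilobase (SD, n = 3), rank 30 of 17164 genes with a length, followed by Ftl1 at 58.4 ± 6.41 and Tfrc at 21.4 ± 1.51. Slc11a2 had 10 ± 0.513 CPM per kilobase, Ireb2 7.36 ± 0.261 and Aco1 7.32 ± 0.513. Then came Cp at 1.82 ± 0.0635, Trf at 1.53 ± 0.179, Slc40a1 at 1.14 ± 0.0425 and Heph at 0.704 ± 0.229 CPM per kilobase. Over the 7 libraries the ranges of Ireb2 and Aco1 overlapped, as did those of Cp with Trf and of Trf with Slc40a1, and the other neighbours were apart. With the longest coding transcript as the length, Slc40a1 stood above Trf. The place of Trf and Ftl1 in this order carries the limits of read assignment given above.

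Marker genes of glia and of endothelium had mostly lower fitted values with TSP1, and none of them passed edgeR's test over all genes. Of 16 microglia markers 15 had fitted values below 0, and their summed level was 572 to 707 CPM with TSP1 and 719 to 837 CPM with PBS. Of 16 astrocyte markers 15 were below 0, with sums of 6073 to 7471 and 7045 to 8113 CPM. Of 15 myelin markers 11 were below 0, with sums of 3241 to 8799 and 4826 to 6081 CPM. All 14 endothelial markers were below 0, with sums of 387 to 502 and 508 to 583 CPM. The microglia and endothelial sums did not overlap between the groups, while the astrocyte and myelin sums did. None of these markers was at 0 in any library. The part of these cell types in the values of Fth1, Ftl1 and Trf was not tested. Choroid plexus, which makes transferrin, was represented by few counts: 6 of its 10 markers were at 0 in at least 1 library, and Ttr averaged 0.0711 CPM with TSP1 and 0.512 CPM with PBS. The summed level of its list was 6.13 to 24.5 CPM and 7.33 to 9.13 CPM.

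Over the 7 libraries 60 relations between an iron gene and a marker list were computed, each in log2 CPM, with exact permutation p-values (two-sided). None passed adjustment (smallest adjusted p = 0.384 for Pearson's r and 0.357 for Spearman's rho), and the group difference enters each of them. Trf went with the myelin markers at r = 0.80 (exact permutation p = 0.0256) and rho = 0.75 (p = 0.0663), and at r = 0.82 without TSP1 replicates 4 and 2, the libraries farthest from the median. Ftl1 went with the microglia markers at r = 0.87 (exact permutation p = 0.0109) and rho = 0.89 (p = 0.0123), and at 0.77 without TSP1 replicates 4 and 1. With the astrocyte markers Ftl1 had r = 0.84 (exact permutation p = 0.0133) and rho = 0.93 (p = 0.00675), and 0.66 without the same libraries. Cp went with the astrocyte markers at r = 0.82 (exact permutation p = 0.0232) and rho = 0.86 (p = 0.0238), and at 0.59 without TSP1 replicates 1 and 4. Fth1 went with the microglia markers at r = 0.76 (exact permutation p = 0.0466) and rho = 0.79 (p = 0.048), and at 0.91 without TSP1 replicates 4 and 1. With the astrocyte markers Fth1 had r = 0.72 (exact permutation p = 0.0714) and rho = 0.79 (p = 0.048), and 0.66 without TSP1 replicates 1 and 4. Fth1 had r = 0.55 (exact permutation p = 0.2) and rho = 0.75 (p = 0.0663) with the myelin markers, and r = 0.96 without TSP1 replicates 4 and 2. Leaving out these libraries also raised r with the myelin markers for Ftl1 (0.25 to 0.99) and Heph (0.42 to 0.91), so such a rise was not particular to Fth1. Slc40a1 ran the other way with myelin, at r = -0.76 (exact permutation p = 0.0498) and rho = -0.86 (p = 0.0238), but at -0.43 without TSP1 replicates 4 and 2, so that relation rests largely on those libraries.

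**Figure D4:**
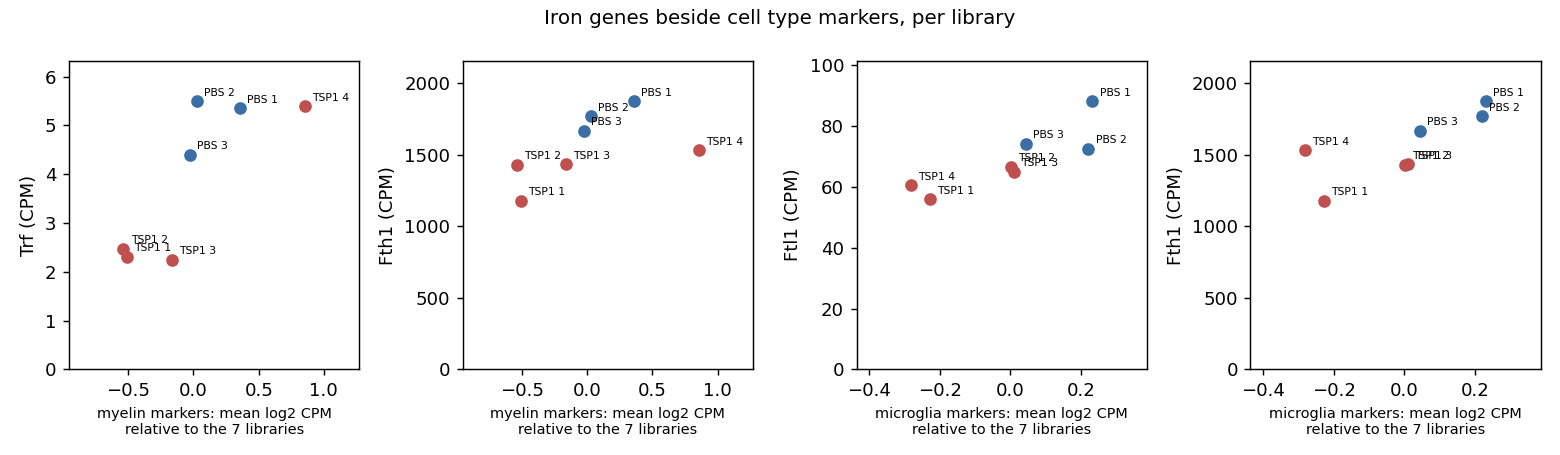
CPM of Trf, Fth1 and Ftl1 (vertical axes, from 0) against the mean log2 CPM of myelin or microglia markers relative to the 7 libraries (horizontal axes), 1 labelled point per library, red for TSP1 and blue for PBS. In the Trf panel TSP1 replicates 1 to 3 lie low on both axes and TSP1 replicate 4 lies at the highest myelin value with 5.39 CPM.

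The genes most like 3 of the 10 were ranked by Pearson's r of log2 CPM over the 7 libraries. For Fth1 these were M6pr, a receptor gene that carries enzymes to the lysosome (r = 0.996, rho = 0.96), the DNA repair gene Ogg1 (r = 0.98), and the mitochondrial enzyme genes Idh3b (0.98) and Ndufs7 (0.98). All 4 were lower with TSP1 without overlap, as Fth1 itself (5.26% of all genes were of that kind). Because the 4 were chosen by their likeness to Fth1, this follows largely from the choice and adds no support. For Trf the most like genes were Rpe65, Selenoo, Ptpn11 and Eif4a3 (r = 0.98, 0.97, 0.97 and 0.96). In each of them TSP1 replicate 4 was high beside the other TSP1 libraries, as in Trf, which again follows largely from the choice. For Slc40a1 they were Shh, Bend4, the manganese exporter gene Slc30a10 and Ndufaf7 (r = 0.99, 0.97, 0.96 and 0.95). With 7 points and 14219 genes ranked, such values describe these libraries only.

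Further genes of iron handling were taken from 7 lists, and 0 of them passed edgeR's quasi-likelihood test over all genes, while Sat1 and Nfe2l2 passed in some alternatives given below. Over all genes tested, 48.9% had fitted values below 0, 5.44% were lower at an unadjusted p under 0.05, and 5.26% were lower without overlap, for comparison with the counts that follow. The shares of higher genes were 4.21% at such a p and 4.83% without overlap. The lists, too, were chosen with earlier results of these data known. Of 14 tested uptake partners (17 listed) 5 had fitted values below 0 (median 0.025), and 3 of 14 were below 0 at an unadjusted p under 0.05 (5.44% of all genes). Steap3, the endosomal ferrireductase that prepares iron for Slc11a2, had 6.73, 7.64, 7.24 and 5.88 CPM with TSP1 and 9.99, 10.1 and 8.5 CPM with PBS. Its groups did not overlap (log2 fold change -0.47 with SE 0.14, adjusted p = 0.288 in edgeR). Snx3, which recycles the transferrin receptor, did not overlap either (-0.15, SE 0.06), and Slc39a8, a metal importer gene, had -0.41 (SE 0.18) with overlap. Slc39a8 was -0.30 without PBS replicate 2. Snx3 was -0.12 without PBS replicate 1 and -0.10 after a length and GC correction. In each of these fits the unadjusted edgeR p was above 0.05.

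Of 10 tested storage chaperones and ferritin turnover genes (11 listed) 7 were below 0 (median -0.088) and 0 had an unadjusted p under 0.05 in either direction. The ferritin autophagy receptor gene Ncoa4 stood at 0.02 (SE 0.08), beside the -0.35 of Fth1. The smallest p-values were those of Bola2 (-0.31, SE 0.15), Herc2 (0.14, SE 0.08) and Pcbp1 (-0.10, SE 0.06), of which Pcbp1, a chaperone that loads ferritin, had no overlap. Bola2 was -0.21 without PBS replicate 1, Herc2 was 0.085 without PBS replicate 1 and 0.087 without TSP1 replicate 1, and Pcbp1 was -0.063 without TSP1 replicate 1. After a length and GC correction Herc2 was 0.072 and Pcbp1 -0.029. Among export partners and regulators 8 of 13 tested genes (18 listed) were below 0 (median -0.017). Epas1, a hypoxia factor gene, had 166, 172, 153 and 130.8 CPM with TSP1 and 188, 199 and 172 CPM with PBS (log2 fold change -0.26 with SE 0.09, adjusted p = 0.376 in edgeR). Fbxl5, whose protein marks the Ireb2 protein for decay, and its ligase scaffold Cul1 had 0.13 (SE 0.07) and 0.089 (SE 0.06), with Fbxl5 at 0.065 after the length and GC correction and Cul1 at 0.058 without PBS replicate 1.

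Heme genes were spread around 0, with 11 of 24 tested (26 listed) below it and a median of 0.01. Their smallest p-values belonged to genes with higher fitted values and no overlap: the porphyrin transporter gene Abcb6 (0.58, SE 0.23, edgeR adjusted p = 0.449), Flvcr1, linked to heme export (0.20, SE 0.10), and Cd163, a scavenger receptor gene of macrophages (0.45, SE 0.22). Of the 24, 3 were higher without overlap (4.83% of all genes) and 1 was lower without overlap (5.26%). At an unadjusted p under 0.05, 1 of 24 was higher, Abcb6 (4.21% of all genes), and 0 were lower (5.44%). Abcb6 had 2.7, 1.99, 2.36 and 2.29 CPM with TSP1 and 1.39, 1.71 and 1.59 CPM with PBS. The heme oxygenase gene Hmox1 had a log2 fold change of -0.092 (SE 0.24). Its levels were 2.97, 5.7, 3.13 and 2.83 CPM with TSP1 and 3.87, 3.96 and 3.91 CPM with PBS. TSP1 replicate 2 lay above every PBS library and the other TSP1 libraries below every PBS library, so this value near 0 depends on TSP1 replicate 2. Of 25 iron-sulfur cluster genes 16 were below 0 (median -0.042, beside 48.9% of all genes below 0), and 3 of 25 were so at an unadjusted p under 0.05 (5.44% of all genes). Those were Bola3 (-0.34, SE 0.10), Ciao2b (-0.31, SE 0.11) and Nubp2 (-0.24, SE 0.11), assembly factors of the mitochondrion (Bola3) and the cytosol, and Bola3 and Ciao2b did not overlap. Nubp2 was -0.15 without TSP1 replicate 1, and when single libraries were left out it kept an unadjusted p under 0.05 only without TSP1 replicate 2.

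Of the 4 other genes listed for iron-responsive elements, 2 had fitted values below 0 (median 0.11). Epas1, described above, was below 0, while Cdc14a, a phosphatase gene, had 0.27 (SE 0.20), a value that moved to 0.41 when TSP1 replicate 2 was left out, and to 0.16 or 0.17 when replicate 1 of TSP1 or of PBS was. In the list of iron-dependent lipid oxidation 10 of 15 genes were below 0 (median -0.099), 4 of them at an unadjusted p under 0.05 and without overlap (Sat1, Nfe2l2, Gclm and Gpx4, where 5.44% and 5.26% of all genes were of these kinds), and Alox12 was above 0 at such a p. Nfe2l2, the transcription factor gene of the antioxidant response, to which ferritin genes belong, had 14.4, 15.5, 18.1 and 16.3 CPM with TSP1 and 21.6, 22.5 and 19.8 CPM with PBS. The groups did not overlap (log2 fold change -0.41 with SE 0.10, adjusted p = 0.188 in edgeR). Gclm, a glutathione synthesis gene, had -0.16 (SE 0.06), and Sat1, which acetylates polyamines, -0.40 (SE 0.07, edgeR adjusted p = 0.112), both without overlap. Sat1 was called by DESeq2 (adjusted p = 0.00485), by edgeR's exact test (adjusted p = 0.00261) and by edgeR without a low-count filter (adjusted p = 0.0413). Nfe2l2 was called by edgeR's exact test (adjusted p = 0.0378) and not by DESeq2 (adjusted p = 0.0955). The peroxidase gene Gpx4, which guards membranes against iron-driven oxidation, had -0.21 (SE 0.09). Its levels were 138.1, 174.7, 180.8 and 174.8 CPM with TSP1 and 197.2, 182.2 and 201.9 CPM with PBS. TSP1 replicate 1 was far below the other libraries, and TSP1 replicate 3 lay only just below PBS replicate 2.

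**Figure D5:**
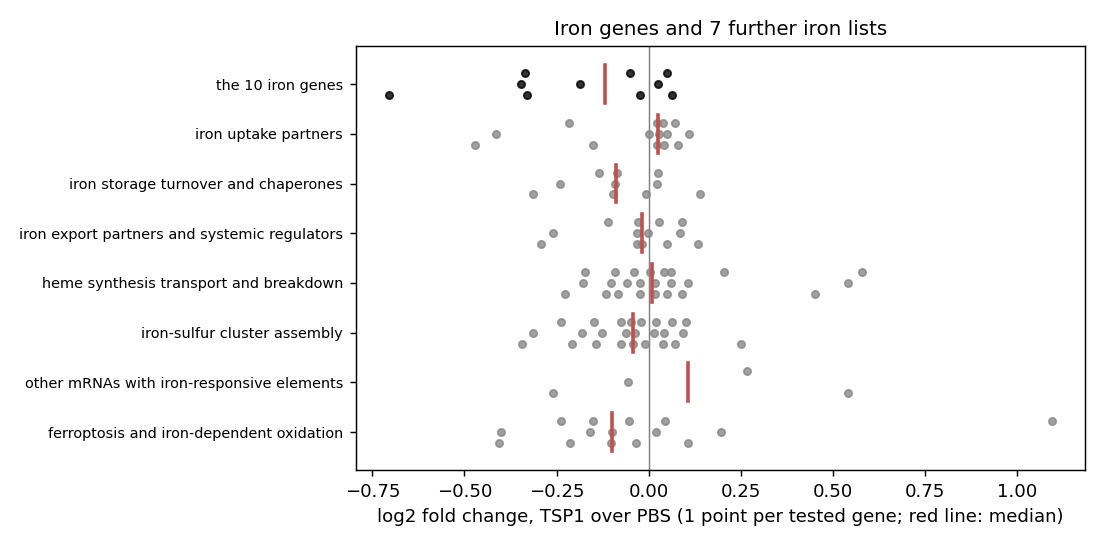
Fitted log2 fold change of TSP1 over PBS (horizontal axis) of the 10 iron genes and of each tested gene of 7 further iron lists (rows), 1 point per gene with a red line at the list median. The medians of the 7 lists lie between -0.099 and 0.11, and that of the 10 iron genes is -0.12.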

How the data were processed

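RNA of 7 mPFC samples was sequenced, and per the labels 1.3 µg of total RNA entered each library. The authors deposited unnormalised counts per gene (whole numbers whose totals differ between libraries). The submitters' processing notes name GRCm38 and mm10. The sources used here give no aligner, counter, annotation or strand setting. Columns were matched by the leading number of each description, and 0 belonged to other samples. Symbols, exon lengths and transcripts come from GENCODE M21 (25375 of 25467 genes matched).

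The test was edgeR 4.0.16 (R 4.3.3) with filterByExpr, TMM scaling and a robust quasi-likelihood fit of group over all 7 libraries, two-sided, adjusted over all genes by Benjamini-Hochberg, threshold 0.05. Positive log2 fold changes are higher in TSP1 libraries, and the SE is the size of the change over the square root of F. List means use log2 CPM with a prior count of 2. Ferritin copies were found with blastn 2.17.0 (at least 80% identity over 150 bases). Alternatives were RLE scaling, DESeq2 1.42.0 (no adjusted p for 10876 genes), edgeR's exact test, limma-voom (limma 3.58.1), other filters (none, or 5 CPM in 3 libraries), the replicate block, a length and GC correction, and leaving out each library. The scripts were tested on simulated data. Replicates differed by more than sampling noise (chi-square per degree of freedom 3.98 to 13.4). The members and lists were chosen with earlier results of these data known. In each further list the 3 genes of smallest p were to be named (1 of them is not reported here), and the 4 most like genes of Trf, Fth1 and Slc40a1; Ncoa4, Hmox1 and Gpx4 were added after their values were seen. P-values measure the spread between these mice.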

Additional observations from a re-analysis of the deposited data

Results flagged for a closer look

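Of 41 values examined in the 4 TSP1 libraries, 5 had 1 library far from the other 3 (its gap to the nearest, over the whole range, above Dixon's critical value for 4 samples), where chance gives about 1 in 20. For Trf the share was 0.928: TSP1 replicate 4 had 5.39 CPM against 2.25 to 2.48 CPM. For the mean of the striatal projection neuron markers it was 0.922, with the same replicate above the others. For Flvcr1 it was 0.889, with TSP1 replicate 1 at 20.2 CPM against 16.8 to 17.2 CPM. For Fbxl5 it was 0.903, with TSP1 replicate 2 at 95.8 CPM, below the PBS libraries (96.9 to 99.3 CPM), against 111 to 113 CPM in the other TSP1 libraries. For Snx3 it was 0.837, with TSP1 replicate 1 at 94.5 CPM against 101 to 103 CPM.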

How the results depend on the processing

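Genes called numbered 0 with all 7 libraries, 88 with DESeq2, 104 with edgeR's exact test, 19 without a low-count filter, and 0 to 9 when single libraries were left out (9 without PBS replicate 3); the cause was not tested. Fth1 was called by DESeq2 (log2 fold change -0.34, DESeq2 adjusted p = 0.0222). Fth1, Ftl1, Trf and Cp kept values below 0 in every alternative run. Heph did so wherever it was tested, but it did not pass the filter of 5 CPM in 3 libraries. When single libraries were left out, Fth1 stood at -0.39 to -0.27, Ftl1 at -0.38 to -0.24 and Trf at -1.11 to -0.57. In those fits Cp stood at -0.24 to -0.14 and Heph at -0.47 to -0.021. Near 0, the sign turned for Ireb2 after the length and GC correction (-0.015), for Slc11a2 with the replicate block (0.023), and when single libraries were left out for Tfrc (-0.11 to 0.0069), Slc11a2 (-0.085 to 0.026) and Aco1 (-0.029 to 0.072). Same-numbered libraries did not deviate together (r = -0.26, -0.033 and 0.010), so the numbers were not taken as pairs; the replicate block, in which TSP1 replicate 4 has no partner and adds nothing to the difference, left 0 genes called and gave Trf -1.11 and Fth1 -0.40 (edgeR adjusted p = 0.393). Trf and Heph, with 35 to 155 counts per library, are the genes of the 10 most limited by depth.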
